A study of Mus musculus with 20 samples.

Results

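The peptide hormones of the pancreatic islet were followed in whole mouse pancreas around birth as 7 genes, Ins2, Iapp, Gcg, Sst, Ppy, Pyy and Ghrl, of the 30063 genes with a single-symbol probe set on the array. The genes were listed by symbol, each had 1 such probe set, and all 7 of 7 passed the signal filter, which left 17993 genes tested. Pancreas RNA was hybridised to 20 Affymetrix transcript arrays. These were 6 arrays of inceptor knockout (Iir -/-) newborns at P0, 5 of wild-type (Iir +/+) newborns at P0, 5 of knockout fetuses at E18.5 and 4 of wild-type fetuses at E18.5. All animals were C57BL/6J, and their sex was not determined. Starvation lasted 5 h for the pups at P0 and 2 h for the mothers at E18.5, and the running numbers in the sample descriptions were 1 to 12 at P0 and 13 to 22 at E18.5, so age, starvation and running number cannot be told apart. The labels do not give the making of the Iir allele or the animal behind each array, so the spread behind each p-value is that between samples and may be technical. Inceptor is encoded by Elapor1, which the labels call Iir, and lowers insulin receptor signalling in beta cells.

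In the islet, beta cells release insulin together with islet amyloid polypeptide, alpha cells release glucagon, delta cells somatostatin and PP cells pancreatic polypeptide, while peptide YY and ghrelin are made by further endocrine cells that are most frequent before and around birth. Each hormone is translated as a precursor, which prohormone convertases and amidating enzymes trim inside secretory granules packed with chromogranins and secretogranins. Insulin and glucagon set blood glucose in opposite directions, and somatostatin restrains the release of both.

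The arrays were alike in scale, with medians between 4.81 and 4.94 on the log2 scale and a lowest pairwise correlation of 0.979, and their number limits the precision. Elapor1 was at 5.58 to 6.38 in P0 knockouts, against 11.07 to 12.01 in P0 wild type. It was at 5.79 to 6.50 in E18.5 knockouts, against 11.66 to 12.06 in E18.5 wild type, so the deleted gene matched the labels on all 20 arrays. On 5 arrays the mean signal of the intestinal epithelium or skeletal muscle markers exceeded 8. These marker-rich arrays were P0 knockouts 4 and 6, E18.5 knockouts 1 and 2, and wild type 4 at E18.5. Some counts and differences are also given without them. Others that are given one way only, such as the E18.5 genotype difference of Sst, moved by over 1.5 times too. Since RNA came from whole pancreas, fewer cells of a type and less RNA per cell cannot be told apart.

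Ins2, 1 of the mouse insulin genes, could not show differences. Its log2 signal was 18.58 on 19 of 20 arrays and 18.50 on P0 knockout 6. Equal values of this kind were found for 126 genes on at least 19 arrays. Most of these sat at the ceiling of the scale, 19.93, whereas Ins2 was among 38 that held 1 value below it. Ins2 was therefore left out of every comparison, which leaves 6 hormone genes. Ins1 was not analysed here.

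The stretches just upstream of Gcg, the hormone that passed a test, of Sst and Pyy, the pair with the highest correlation between arrays of a group, and of Ppy, the neighbour of Pyy on the chromosome, are shown from RefSeq (GRCm38.p6). They are printed 5′ to 3′ along the gene, and each gives the 150 bases that end just before the start of the transcript. Capitals mark TATAA, the core of the TATA box, TGACGTCA, the cyclic AMP response element, and TAAT, the core recognised by homeodomain factors, each searched on both strands.
Gcg (chr2:62483654-62483803, minus strand): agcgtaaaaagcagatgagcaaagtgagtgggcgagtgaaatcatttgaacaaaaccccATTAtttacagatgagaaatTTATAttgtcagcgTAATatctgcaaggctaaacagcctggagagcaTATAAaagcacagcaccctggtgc
Sst (chr16:23890845-23890994, minus strand): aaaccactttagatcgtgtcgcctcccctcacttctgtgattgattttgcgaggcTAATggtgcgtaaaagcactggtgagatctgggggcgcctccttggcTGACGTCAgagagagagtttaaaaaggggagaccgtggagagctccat
Ppy (chr11:102101320-102101469, minus strand): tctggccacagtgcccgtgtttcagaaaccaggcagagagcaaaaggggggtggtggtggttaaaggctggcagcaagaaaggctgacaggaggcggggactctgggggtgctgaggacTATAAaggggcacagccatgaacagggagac
Pyy (chr11:102107833-102107982, minus strand): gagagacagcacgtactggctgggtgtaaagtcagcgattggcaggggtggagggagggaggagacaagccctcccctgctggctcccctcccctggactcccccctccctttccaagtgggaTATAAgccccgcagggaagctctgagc
Of the 6 hormone genes with a promoter in the RefSeq table, 4 (Gcg, Iapp, Ppy and Pyy) had TATAA, against 14.2% of the 32851 windows of this length in the table. Gcg also held it on the other strand. In the gene's direction the match nearest the start began at -24 in Gcg, -31 in Ppy and -27 in Pyy, counting the base before the start as -1. The palindrome TGACGTCA was present in Sst alone of the 6, at -48 to -41, and in 1.36% of all windows. In the rat somatostatin gene this element is bound by CREB. TAAT was found in Gcg, Iapp and Sst, against 37.8% of all windows, and 2 of its matches overlap each other in Iapp. Ppy and Pyy are next to each other among the protein-coding genes of chromosome 11, on the same strand. A match describes these letters and is not evidence of binding.

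Between the ages, Gcg was the only hormone gene called, and the call was in wild type. Gcg had log2 signals of 16.33, 16.74, 16.56, 16.62 and 16.37 on the P0 wild-type arrays, against 15.90, 16.30, 15.97 and 15.92 on the E18.5 wild-type arrays. Every P0 array stood above every E18.5 array, a separation shown by 11.6% of all tested genes in this comparison, and with P0 higher by 6.24%. Gcg rose by 0.50 ± 0.15 (SE) on the log2 scale in P0 wild type relative to E18.5 wild type, or 1.42-fold (95% interval 1.13 to 1.77), at an adjusted p = 0.0476 by limma with Benjamini-Hochberg adjustment over all tested genes. It was 1 of 6 hormones called, against 8.86% of all tested genes (4.76% called higher), and 1 of 6 with an unadjusted p under 0.05, against 24.4%.

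The Gcg call lay close to the threshold. Its log2 difference stayed between 0.45 and 0.60 when each array was left out in turn, but the adjusted p ranged up to 0.129. The call was lost without any of P0 wild types 2, 3, 4 and 5 (0.0913, 0.0908, 0.0843 and 0.0580), E18.5 wild types 1, 3 and 4 (0.129, 0.106 and 0.0973), P0 knockouts 2, 3, 5 and 6 (0.0502 to 0.0573) or E18.5 knockouts 2, 3 and 5 (0.0557 to 0.0587). The difference was 0.47 without the marker-rich arrays (adjusted p = 0.103). Intestinal cells also transcribe the glucagon gene. Of 8 intestinal markers, 3 were above 0 and 5 below 0 in P0 relative to E18.5 wild type (median -0.31), and 1 was called, Vil1, a microvillus protein, at -1.02 ± 0.20. The mean of the intestinal list was 6.44 to 7.31 on P0 wild-type arrays and 6.90 to 9.08 on E18.5 wild-type arrays. Of 13 liver markers, 12 were below 0 with a median of -1.69, with 0 called by limma and 1 at an unadjusted p under 0.05. With both marker means as covariates Gcg stood at 0.53 (adjusted p = 0.0900).

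In knockouts the same comparison gave Gcg a smaller difference that did not pass. P0 knockouts ran from 16.56 to 17.27 with a median of 16.68, and E18.5 knockouts had 16.87, 16.56, 16.46, 16.08 and 16.56. All 6 P0 knockouts were above the E18.5 knockout mean, but the groups overlapped. The difference was 0.25 ± 0.14 (adjusted p = 0.215), and 0 of 6 hormones were called in knockouts, against 23.0% of all tested genes. With limma 0 hormones had an unadjusted p under 0.05 here, against 34.9%. The Gcg difference was 0.44 without the marker-rich arrays, 0.14 without P0 knockout 1 and 0.14 without E18.5 knockout 4, none of them called. The age difference of Gcg did not itself differ between the genotypes beyond the spread (-0.25 ± 0.21, adjusted p = 0.845, with 0.00% of all tested genes called), and it was -0.024 without the marker-rich arrays.

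**Figure D1:**
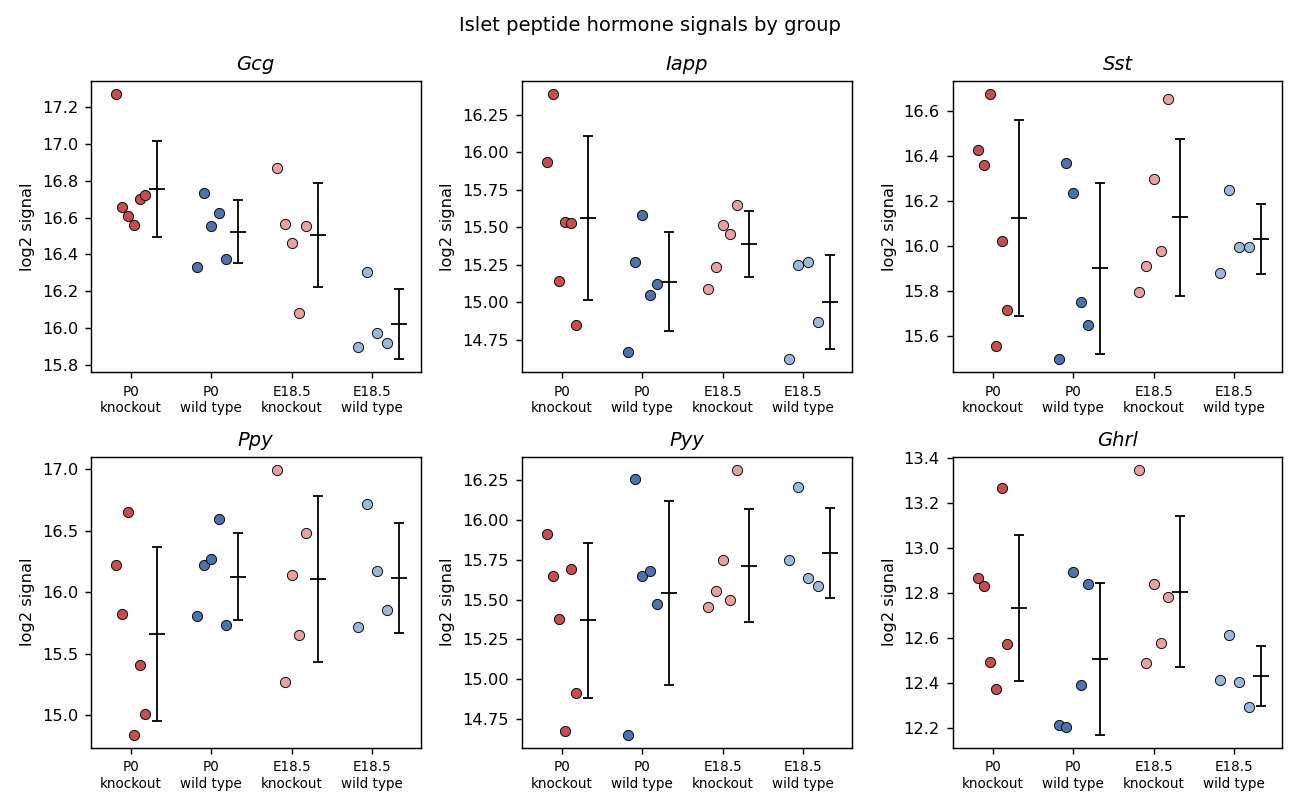
Log2 signal of the 6 hormone genes (y axes, each with its own scale) on every array of the 4 groups (x axes). Points are arrays, and the bar beside them gives mean ± SD; Gcg is the gene whose P0 wild-type and E18.5 wild-type arrays do not overlap.

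The genotype comparison asked whether hormone transcripts differ when inceptor is absent, and no hormone passed the test at either age. At E18.5, Gcg was higher in 5 of 5 knockouts than the wild-type mean, and 4 of these 5 arrays exceeded every wild-type array. E18.5 wild type 2 (16.30) overlapped with E18.5 knockout 4 (16.08). E18.5 knockouts averaged 16.51 ± 0.28 (SD, n = 5), against 16.02 ± 0.19 in E18.5 wild type (SD, n = 4), a difference of 0.48 ± 0.15 or 1.398-fold (95% interval 1.12 to 1.75). Its limma p was 0.00535 before adjustment, rank 129 of the tested genes, and 0.747 after it. With limma 0 of 6 hormones were called at E18.5, against 0.0111% of all tested genes, and 1 of 6 had an unadjusted p under 0.05, against 5.45%. The groups overlapped for all 6 hormones, whereas 2.45% of tested genes had none. The difference of Gcg was 0.31 without the marker-rich arrays, which is over 1.5 times smaller, and with the intestinal and liver marker means as covariates it was 0.48.

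At P0, knockouts averaged 16.75 ± 0.26 for Gcg (SD, n = 6), against 16.52 ± 0.17 in wild type (SD, n = 5). All 6 knockouts were above the wild-type mean, but only P0 knockout 1 (17.27) exceeded every wild-type array. The difference was 0.23 ± 0.14 (adjusted p = 0.650), and 0.13 without P0 knockout 1. None of the 6 hormones was called at P0 (0 of 6 by limma, against 0.0111% of all tested genes), and 0 had an unadjusted p under 0.05, against 8.76%. Ordered by mean, Gcg was highest in P0 knockouts, then in P0 wild type and E18.5 knockouts, and lowest in E18.5 wild type. The step between the last 2 exceeded the SD of either group, and the steps between the others did not exceed the larger SD.

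Averaged over both ages, the knockout minus wild-type difference of Gcg was 0.36 ± 0.10, a fold of 1.28 (95% interval 1.10 to 1.49). Its limma p was 0.00277 before adjustment and 0.600 after it. Iapp (0.41 ± 0.17) and Ghrl (0.30 ± 0.13) also had an unadjusted p under 0.05, 0.0268 and 0.0351, and adjusted values of 0.704 and 0.723. That makes 3 of 6 hormones under this unadjusted limit, against 6.56% of all tested genes, and 0 of 6 called, against 0.0167%. The median over the 6 hormones was 0.23, and over all tested genes 0.015. The widest 95% interval of the averaged difference was that of Ppy, from -0.76 to 0.29.

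Markers of neighbouring organs were compared between genotypes in the same fit. At P0, 13 of 13 liver markers were above 0 in knockouts relative to wild type (median 1.70, list mean 8.35 to 12.56 in P0 knockouts and 6.19 to 10.70 in P0 wild type), with 0 called by limma and 3 at an unadjusted p under 0.05, while intestinal markers were split 4 to 4 around 0 (median 0.05, 0 called, 1 at an unadjusted p under 0.05). At E18.5, 7 of 8 intestinal markers were above 0 (median 0.73) and 11 of 13 liver markers below 0 (median -0.66), with 0 called by limma and 0 at an unadjusted p under 0.05 in each list. The 5 skeletal muscle markers were above 0 at both ages, with medians of 0.36 at P0 and 0.27 at E18.5, with 0 called by limma and 0 at an unadjusted p under 0.05. Their list mean was highest on P0 knockout 4 (9.27) and E18.5 knockout 1 (8.75). Its median over arrays was 5.89 in P0 knockouts and 5.73 in P0 wild type, and 5.63 in E18.5 knockouts and 5.76 in E18.5 wild type. Of the intestinal markers, the fatty acid binding proteins Fabp1 and Fabp2 spanned 4.902 to 17.59 and 4.15 to 18.78 over all arrays. The gut hormone gene Cck and the gastric genes Gkn1, Gkn2 and Atp4b did not pass the signal filter, while the gastric marker Tff2, a trefoil peptide, was at 16.12 to 18.64. Other gut hormone genes did pass the filter, namely Gip (5.50 to 7.25), Sct (5.18 to 8.34) and Insl5 (4.25 to 8.76).

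Iapp, which encodes the amyloid peptide co-released with insulin, ran from 14.85 to 16.39 with a median of 15.53 in P0 knockouts, against 14.67, 15.27, 15.58, 15.05 and 15.12 in P0 wild type. At E18.5 it was 15.09, 15.24, 15.51, 15.45 and 15.65 in knockouts and 14.62, 15.25, 15.27 and 14.87 in wild type. The groups overlapped at both ages, with 5 of 6 P0 knockouts and 5 of 5 E18.5 knockouts above the wild-type mean of their age. Differences were 0.43 ± 0.23 at P0 (adjusted p = 0.601) and 0.39 ± 0.25 at E18.5 (adjusted p = 0.958). Between the ages they were 0.17 ± 0.23 in knockouts and 0.14 ± 0.25 in wild type. By mean, P0 knockouts came first, then E18.5 knockouts, P0 wild type and E18.5 wild type, and no neighbours in this order differed by more than the larger of their SDs.

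Sst, the somatostatin gene of delta cells, was the most even of the hormones over the 4 groups. Its signals were 15.56 to 16.67 with a median of 16.19 in P0 knockouts, and 15.50, 16.37, 16.24, 15.75 and 15.65 in P0 wild type. At E18.5 they were 15.79, 15.91, 16.30, 15.98 and 16.65 in knockouts and 15.88, 16.25, 15.996 and 15.996 in wild type. All groups overlapped, and their means lay between 15.90 and 16.13. The differences were 0.22 ± 0.21 at P0 and 0.10 ± 0.23 at E18.5 for knockout minus wild type, and -0.0022 ± 0.21 in knockouts and -0.13 ± 0.23 in wild type for P0 minus E18.5. The 95% interval of the age difference in knockouts was -0.44 to 0.44, and the P0 genotype difference was 0.47 without the marker-rich arrays. No neighbours in the order of means differed beyond their SD.

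Ppy, which encodes pancreatic polypeptide, varied most between arrays, with a range of 4.44-fold over the 20 arrays. P0 knockouts ran from 14.84 to 16.66 with a median of 15.62, against 15.81, 16.22, 16.27, 16.59 and 15.74 in P0 wild type. E18.5 knockouts had 16.995, 15.27, 16.14, 15.66 and 16.48, against 15.71, 16.72, 16.18 and 15.86 in E18.5 wild type. The lowest P0 knockouts were arrays 4 and 6, 2 of those rich in muscle or intestinal markers, and the groups overlapped. The P0 difference of -0.46 ± 0.33 (adjusted p = 0.711) was -0.10 without the marker-rich arrays, and the E18.5 difference was -0.01 ± 0.37. P0 minus E18.5 was -0.45 ± 0.33 in knockouts (-0.06 without the marker-rich arrays) and 0.01 ± 0.37 in wild type. P0 wild type, E18.5 wild type and E18.5 knockouts had means of 16.13, 16.12 and 16.11, and the step down to P0 knockouts (15.66) was smaller than their SD of 0.71.

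Pyy, which encodes peptide YY, an appetite-restraining peptide of the same family as Ppy, was likewise lowest on a few P0 arrays. P0 knockouts ran from 14.67 to 15.92 with a median of 15.51, against 14.65, 16.26, 15.65, 15.68 and 15.47 in P0 wild type. E18.5 knockouts had 15.45, 15.55, 15.75, 15.50 and 16.31, against 15.75, 16.21, 15.64 and 15.58 in E18.5 wild type. Groups overlapped throughout, and P0 wild type 1 and P0 knockouts 4 and 6 were below every other array. Pyy differed by -0.17 ± 0.26 between genotypes at P0, which became 0.12 without the marker-rich arrays, and by -0.08 ± 0.29 at E18.5. P0 minus E18.5 was -0.34 ± 0.26 in knockouts and -0.25 ± 0.29 in wild type, neither called. By mean E18.5 wild type came first, then E18.5 knockouts, P0 wild type and P0 knockouts, with no step beyond the SDs.

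Ghrl, the ghrelin gene of epsilon cells, ran from 12.38 to 13.27 with a median of 12.70 in P0 knockouts, against 12.21, 12.21, 12.89, 12.39 and 12.84 in P0 wild type. At E18.5 it was 13.35, 12.49, 12.84, 12.58 and 12.78 in knockouts and 12.42, 12.61, 12.41 and 12.29 in wild type. E18.5 knockouts were above the wild-type mean in 5 of 5 cases, 3 of them above every wild-type array. The difference was 0.38 ± 0.20 at E18.5 (adjusted p = 0.921) and 0.23 ± 0.18 at P0 (adjusted p = 0.735). P0 minus E18.5 was -0.07 ± 0.18 in knockouts and 0.08 ± 0.20 in wild type. By mean E18.5 knockouts came first, then P0 knockouts, P0 wild type and E18.5 wild type, with no step beyond the SDs. Mboat4, the acyltransferase that activates ghrelin, did not pass the test by genotype (-0.12 ± 0.11 at P0 and 0.04 ± 0.12 at E18.5).

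**Figure D2:**
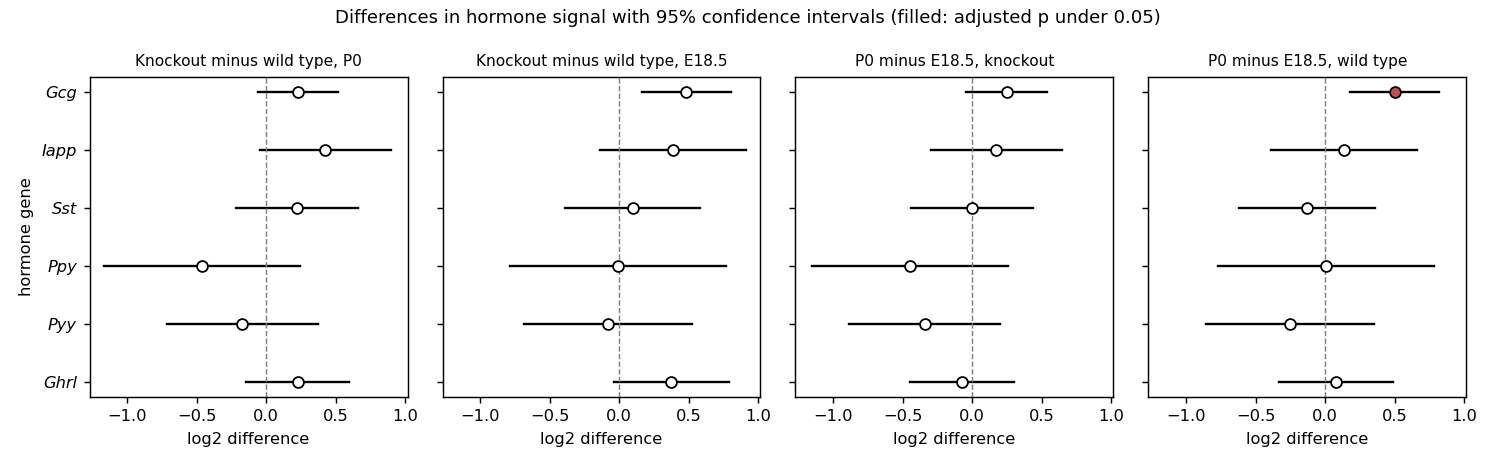
Log2 differences of the 6 hormone genes (x axes, lines: 95% confidence intervals) for 4 comparisons, one per panel. The filled point, Gcg in P0 wild type minus E18.5 wild type (0.50), is the one with an adjusted p under 0.05; all other points are open.

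Hormones were also compared with one another within groups, by taking each array's deviation from its group mean. Across the 20 arrays, Pearson's r for the 15 hormone pairs ran from 0.08 to 0.80 with a median of 0.37, and 7 pairs exceeded 0.5. The highest was Sst with Pyy, at r = 0.80 (Spearman's rho 0.79), with 0.77 over the 11 P0 arrays and 0.91 over the 9 E18.5 arrays. It was 0.85 without the 2 arrays furthest from the median of Sst, and 0.69 over the 15 arrays left without the marker-rich ones. Sst with Ppy had r = 0.63 and Iapp with Pyy 0.59, while Sst with Ghrl had the lowest value. These points share RNA, array and normalisation, so the correlations are descriptions.

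The deviations were then set against the mean of 13 genes of the secretory granule and of endocrine cells in general. Over the 20 arrays Pyy followed this mean most closely (r = 0.79), then Gcg (0.69), Ppy (0.66), Iapp (0.61), Sst (0.58) and Ghrl (0.46). By age, Iapp had 0.78 over the P0 arrays but 0.08 over the E18.5 arrays, and Sst 0.66 and 0.37. In the same order Pyy had 0.84 and 0.65, Gcg 0.64 and 0.80, Ppy 0.68 and 0.66, and Ghrl 0.39 and 0.63. Leaving out the marker-rich arrays gave 0.79 for Pyy, 0.75 for Gcg, 0.57 for Iapp, 0.54 for Ppy, 0.52 for Sst and 0.27 for Ghrl. With the intestinal markers, r ran from -0.42 (Ppy) to 0.06 (Gcg).

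**Figure D3:**
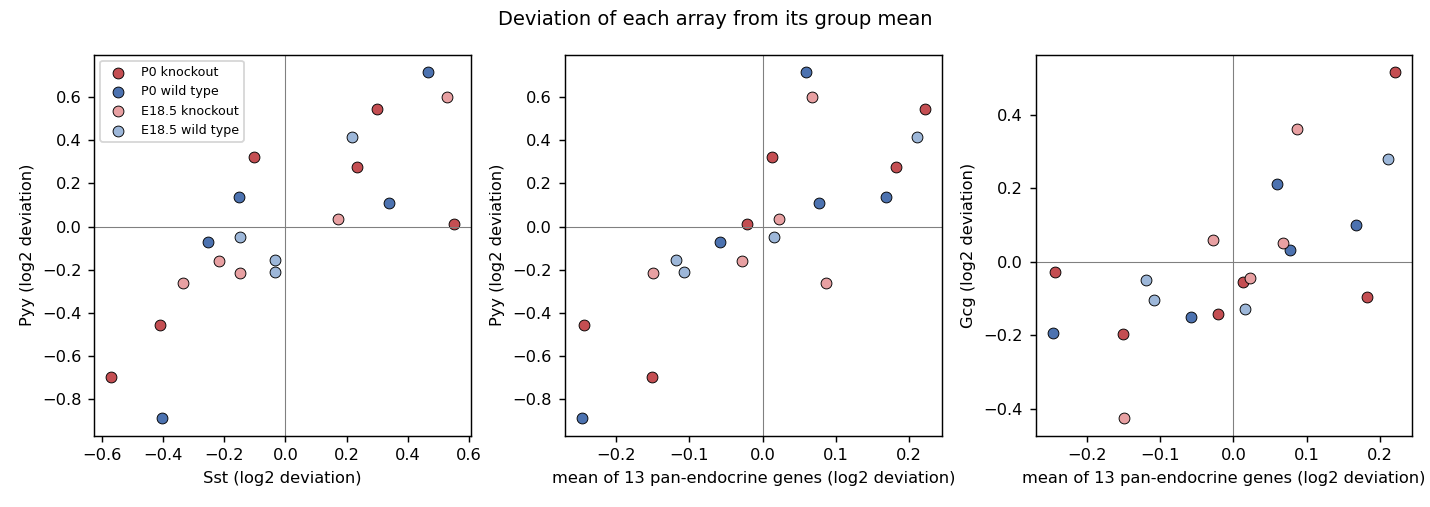
Deviation of each of the 20 arrays from its group mean on the log2 scale, for Pyy against Sst (left), and for Pyy (middle) and Gcg (right) against the mean of 13 endocrine genes. Points are arrays coloured by group; Pyy rises with Sst (r = 0.80), and P0 wild type 1 and P0 knockouts 4 and 6 lie lowest on the Pyy axis.

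The genes whose deviations most resembled those of a hormone included known endocrine regulators for Sst and Pyy. For Pyy these were Pax6 (r = 0.91), a transcription factor required for endocrine differentiation that also belongs to the 13 genes above, Eng (0.88) and Cdh5 (0.86), the last 2 being endothelial genes. For Sst they were Glis3 (0.88), a transcription factor mutated in neonatal diabetes, Tbc1d4 (0.86), a Rab GTPase-activating protein, and Rasgrf1 (0.84), a Ras exchange factor. Iapp was closest to Grk5 (0.85), the endothelial sialomucin gene Emcn (0.83) and Arhgap31 (0.82). Gcg was closest to Ubqln2 (0.80), Sez6l2 (0.80) and Trim13 (0.73), Ppy to Hoxc9 (0.78), Prdm6 (0.77) and Neil2 (0.77), and Ghrl to Ring1 (0.86), Fam214b (0.82) and Man2c1 (0.80). All were taken from the 17993 tested genes over 20 arrays, with predicted genes and small RNAs left out. Several, such as Tbc1d4 (5.45 to 5.90), had signals near the array medians.

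Around the hormones, the genes that process their precursors changed between the ages in both directions. Of 11 tested, 6 were called in knockouts (3 higher, 3 lower; 23.0% of all tested genes were called) and 3 in wild type (2 higher, 1 lower; 8.86%). Their median differences were 0.13 in knockouts and 0.24 in wild type, against -0.0037 and 0.0056 over all tested genes. The counts were 4 in knockouts and 3 in wild type without the marker-rich arrays. Pcsk1, the convertase that cuts proinsulin, averaged 7.24 ± 0.18 (SD) in P0 knockouts and 8.12 ± 0.17 in E18.5 knockouts, and 7.17 ± 0.37 in P0 wild type and 7.86 ± 0.10 in E18.5 wild type. No P0 array overlapped with an E18.5 array of its genotype, as for 12.4% of tested genes in knockouts. Pcsk1 fell by 0.89 on the log2 scale in P0 knockouts (SE 0.14, adjusted p = 0.000251) and fell by 0.69 in P0 wild type (SE 0.15, adjusted p = 0.00953). The wild-type call held without each array in turn and was lost with only the arrays compared (0.0584).

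Pam, which amidates peptide ends, rose by 0.44 ± 0.10 in P0 knockouts (adjusted p = 0.00309) and by 0.49 ± 0.11 in P0 wild type (adjusted p = 0.00858), calls that held in all 34 alternatives. Cpd, a carboxypeptidase of the Golgi, rose by 0.55 ± 0.07 in P0 wild type (adjusted p = 0.000261) and stood at 0.13 ± 0.06 in knockouts (adjusted p = 0.144). The difference between these was not called (-0.42 ± 0.09, adjusted p = 0.261). At P0, Cpd spanned 8.91 to 9.23 in knockouts and 9.32 to 9.52 in wild type without overlap, as 0.511% of tested genes did, at an adjusted p = 0.0952 that became 0.0366 without P0 knockout 1. Ero1b, the oxidase that helps fold proinsulin, fell by 1.59 on the log2 scale in P0 knockouts (SE 0.25, adjusted p = 0.000277) and stood at -0.48 ± 0.27 in wild type (adjusted p = 0.307), a contrast not called either (-1.12 ± 0.37, adjusted p = 0.592). Scg5, the chaperone of a prohormone convertase, rose by 0.85 ± 0.20 in P0 knockouts (adjusted p = 0.00474) and stood at 0.57 ± 0.22 in wild type (adjusted p = 0.109).

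Of 13 genes of the granule matrix and of endocrine cells in general, 4 were called in knockouts (2 higher, 2 lower), against 23.0% of all tested genes, and 4 in wild type (3 higher, 1 lower), against 8.86%. The calls without the marker-rich arrays numbered 3 in knockouts and 2 in wild type. Scg3 and Scg2 rose by 0.80 ± 0.19 and 0.74 ± 0.16 in P0 knockouts (adjusted p = 0.00526 and 0.00256) and by 0.73 ± 0.21 and 0.58 ± 0.17 in P0 wild type (adjusted p = 0.0363 and 0.0448). Chga, chromogranin A, rose by 1.10 ± 0.33 in P0 wild type (adjusted p = 0.0430) and stood at 0.81 ± 0.29 in knockouts (adjusted p = 0.0541). Nkx2-2, an endocrine transcription factor, fell by 0.53 in P0 knockouts (SE 0.14) and fell by 0.51 in P0 wild type (SE 0.15), and Ptprn2, a granule membrane phosphatase, fell by 0.60 in P0 knockouts (SE 0.12, adjusted p = 0.00162). The 4 wild-type calls were lost in 6 to 15 of the 20 fits that left out 1 array (adjusted p up to 0.147), while the knockout calls held in all 20. Without the marker-rich arrays Scg2 (0.0822) and Nkx2-2 (0.0787) were no longer called in knockouts.

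Of 8 regulators of hormone genes, 6 were called in knockouts (1 higher, 5 lower), against 23.0% of all tested genes, and 3 in wild type, all lower, against 8.86%, with medians of -0.34 in knockouts and -0.23 in wild type. Neurog3, which starts endocrine differentiation, fell by 1.12 on the log2 scale in P0 knockouts (SE 0.22, adjusted p = 0.00140) and fell by 0.81 in P0 wild type (SE 0.24, adjusted p = 0.0432). Nkx6-1, a beta-cell regulator, fell by 0.40 in P0 knockouts (SE 0.12) and fell by 0.52 in P0 wild type (SE 0.14). Pax4, which favours beta and delta over alpha cells, passed the signal filter through E18.5 alone, above the median on 7 of 9 E18.5 arrays and 0 of 11 P0 arrays, so its calls follow in part from the filter. Pdx1, a pancreas and beta-cell regulator, was above the median on 1 of 11 P0 arrays and 6 of 9 E18.5 arrays, and its knockout call was lost in 10 of 20 fits that left out 1 array. Among the 5 regulators seen at both ages, 4 were called in knockouts (1 higher, 3 lower) and 2 in wild type. Rfx3, a ciliogenic factor needed for beta cells, fell by 0.63 in P0 knockouts (SE 0.20), a call lost in 7 of these 20 fits. Hhex, the delta-cell regulator that maintains somatostatin expression, rose by 0.77 ± 0.17 in P0 knockouts (adjusted p = 0.00423) and stood at 0.63 ± 0.19 in wild type (adjusted p = 0.0514), while Sst stood near 0. The number of regulators called without the marker-rich arrays was 1 in knockouts, namely Neurog3, and 2 in wild type. The wild-type call of Neurog3 was lost in 9 of the 20 fits, that of Pax4 in 12, and that of Nkx6-1 without E18.5 wild types 1 and 2 (0.0793 and 0.104) or P0 wild types 2 and 4 (0.0548 and 0.0503). In knockouts the Nkx6-1 call was lost without E18.5 knockout 3 (0.0802) or P0 knockouts 4 and 5 (0.0588 and 0.0515).

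Among other marker genes of alpha cells, none was called higher at P0. Of 4 tested, 2 were called lower in knockouts (1 without the marker-rich arrays), against 23.0% of all tested genes, and 1 lower in wild type, against 8.86%. In each genotype 3 of the 4 were below 0 and 1 above 0. The marker above 0 was Dpp4, at 0.32 ± 0.12 in knockouts and 0.31 ± 0.13 in wild type, neither called. Slc38a5, a glutamine transporter that alpha cells can induce, averaged 8.97 ± 0.37 (SD) in P0 knockouts and 11.57 ± 0.69 in E18.5 knockouts, and 9.43 ± 0.94 in P0 wild type and 11.30 ± 0.78 in E18.5 wild type. It fell by 2.60 on the log2 scale in P0 knockouts (SE 0.40, adjusted p = 0.000274) and fell by 1.87 in P0 wild type (SE 0.45, adjusted p = 0.0159), although the wild-type call was lost without E18.5 wild type 1 or 2 (0.0547 and 0.0654). Of 12 beta-cell markers, 3 were called lower in knockouts (Ero1b, Nkx6-1 and Pdx1; 1 without the marker-rich arrays), against 23.0% of all tested genes, and 1 in wild type (Nkx6-1), against 8.86%. Both shares are near those of all tested genes, and 2 beta-cell markers were called in wild type without the marker-rich arrays. Among the 10 beta-cell markers seen at both ages, which leave out Pdx1, 2 were called lower in knockouts and 1 in wild type. Of 5 delta-cell markers, 2 were called higher in knockouts (Hhex and the leptin receptor Lepr), against 23.0% of all tested genes. In wild type limma called 0 of them, against 8.86%. Without the marker-rich arrays limma called 0 delta-cell markers in knockouts. Irx2, an alpha-cell transcription factor above the median on 0 of 11 P0 arrays, stood at -0.17 ± 0.08 in knockouts and -0.03 ± 0.09 in wild type.

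Ptf1a, Rbpjl and Bhlha15, transcription factors of acinar cells, fell between the same ages. Nr5a2, another acinar factor, did not follow in wild type, with means of 10.21 at P0 and 9.86 at E18.5. In knockouts the means of Nr5a2 were 9.73 at P0 and 10.09 at E18.5. Of 11 acinar markers, 3 (27.3%) were called in knockouts, against 23.0% of all tested genes, and 3 in wild type, against 8.86%, all lower. Among the 11, 5 enzyme genes (Cpa1, Cela3b, Prss1, Ctrb1 and Cel) sat at the ceiling on every array and could show no difference. Ptf1a, which drives acinar identity, fell by 2.999 on the log2 scale in P0 knockouts (SE 0.53) and fell by 3.03 in P0 wild type (SE 0.59). Its partner Rbpjl fell by 2.61 in P0 knockouts (SE 0.29) and fell by 1.26 in P0 wild type (SE 0.32), and Bhlha15, a secretory cell factor, fell by 1.90 in P0 knockouts (SE 0.30) and fell by 1.79 in P0 wild type (SE 0.33). Their part in the falls of Slc38a5, Ero1b, Pcsk1 and the regulators was not tested.

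Among hormone receptors and other islet and gut peptides, limma called 0 of 10 and 0 of 13 between the ages in wild type, against 8.86% of all tested genes. An unadjusted p under 0.05 was found for 2 and 1 of them, against 24.4% of all tested genes. Without the marker-rich arrays 1 of each was called, Ramp1 (0.60), a receptor partner, and Npy (-3.59), neuropeptide Y, both singled out after their values were seen. In knockouts 1 of 10 receptors was called (0 by limma without the marker-rich arrays), against 23.0% of all tested genes. This was Igf1r at 0.38 ± 0.12 (adjusted p = 0.0253), and not without E18.5 knockout 1 or P0 knockouts 3 or 6 (0.0528, 0.0547 and 0.05003). Of the 13 other peptides, 4 were called in knockouts, against 23.0% of all tested genes. Adm, called higher among them, was above the median on 6 of 11 P0 arrays and 0 of 9 E18.5 arrays. Its call therefore follows in part from the filter. Among the 11 other peptides seen at both ages, 3 were called in knockouts. Gal, the neuropeptide galanin, fell by 2.54 on the log2 scale in P0 knockouts (SE 0.50, adjusted p = 0.00150), and Penk, the enkephalin precursor gene, rose by 0.90 ± 0.18 (adjusted p = 0.00197). Without the marker-rich arrays Gal was the single peptide still called. By genotype, limma called 0 of the 69 genes of the processing, granule, regulator, receptor, other peptide, alpha-cell, beta-cell and delta-cell lists at either age, with 8 at P0 and 6 at E18.5 under an unadjusted p of 0.05, a limit passed by 8.76% and 5.45% of all tested genes at these ages.

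**Figure D4:**
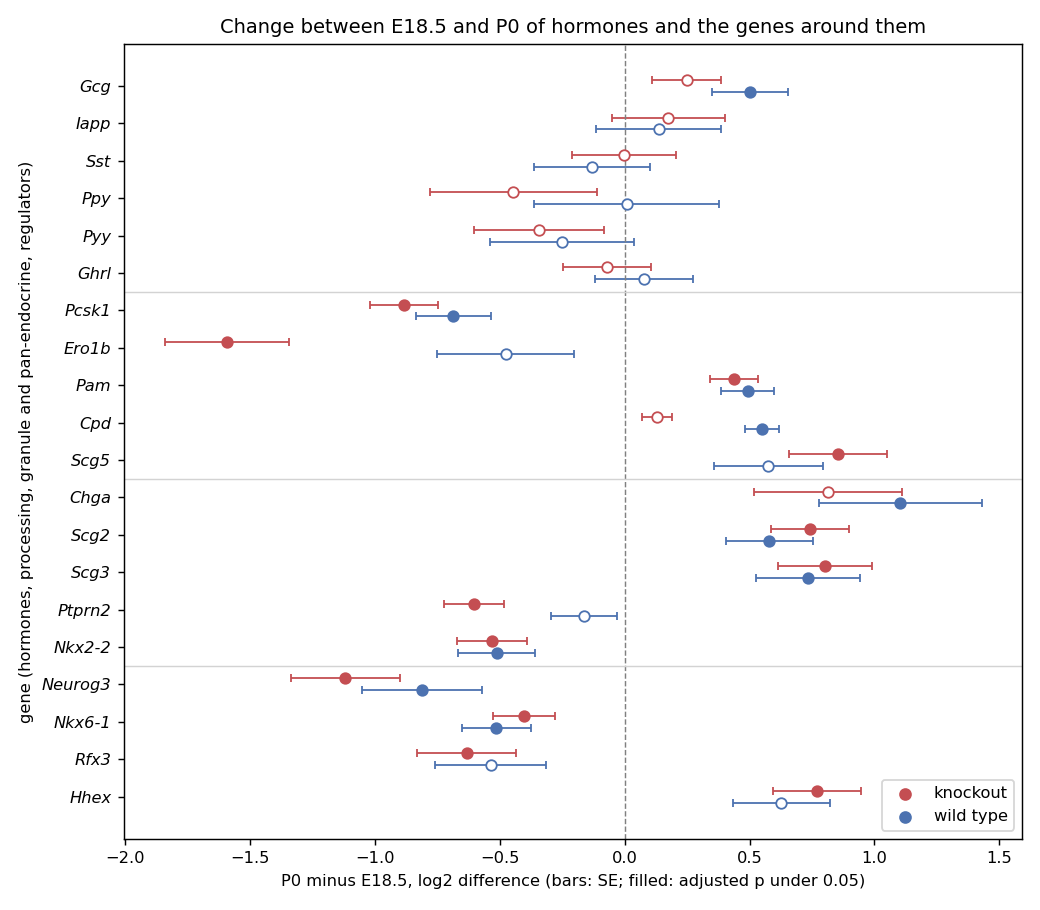
P0 minus E18.5 log2 difference (x axis, bars: SE) of the 6 hormones and of named genes of precursor processing, granule matrix and hormone gene regulation (y axis, groups split by lines), in knockouts (red) and wild type (blue). Filled points have an adjusted p under 0.05: Pcsk1 and Pam are filled in both genotypes, while of the hormones only Gcg in wild type is.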

How the data were processed

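Total RNA of mouse pancreas (20 samples, mapped to 4 groups by their titles) was amplified with NuGEN kits and hybridised to Affymetrix arrays, per the labels' protocols. The deposited values are log2 signals per probe set that the authors made with Affymetrix Expression Console 1.4.1.46 and RMA, per the submitters' processing notes; their depth is a matter of signal over background, and the number of arrays limits precision. What set the ceiling at 19.93 is not given in the sources used here. Of 65956 probe sets, 30604 carried 1 gene symbol, 2146 several and 33206 none in the platform annotation. Symbols were updated through RefSeq, and the single-symbol probe set with the highest mean was used per gene. No value column was left unused.

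A gene was tested where it exceeded the median of its array on 4 or more arrays. Group means were fitted to all 20 arrays with limma 3.58.1 (lmFit, eBayes; 16 residual degrees of freedom) in R 4.3.3, with two-sided tests and Benjamini-Hochberg adjustment over all tested genes within each contrast; an adjusted p under 0.05 is a call. The fit was tested on simulated data. The hormone genes, gene lists and tests were chosen with earlier results of these data known. Named genes were the 7 hormones, Elapor1, and up to 4 called members of a list with the largest change in a contrast, or up to 3 with the smallest p where none was called. The 3 genes whose within-group deviations correlated best with each hormone except Ins2, leaving out predicted genes and small RNAs, were also named. Other genes are named as markers beside a result. Vil1, Irx2, Dpp4, Mboat4 and the gut genes were so chosen. Of the lists, some members have no single-symbol probe set and were not analysed here. Replicate numbers were not treated as pairs, since deviations of same-numbered arrays correlated at -0.03 to 0.25 and the labels state no pairing. Alternatives varied the filter, normalisation, eBayes settings, weights, covariates, probe set rule, arrays fitted, a replicate block and each array in turn; leaving out the 5 marker-rich arrays was chosen after seeing the data.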

Additional observations from a re-analysis of the deposited data

Results flagged for a closer look

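Each hormone, Ins2 included, was examined for an array standing apart within its group (28 groups, of which chance flags about 1 in 20 where values vary). That rate does not hold for Ins2, which has a single value in every group but P0 knockouts. Gcg on P0 knockout 1 was at 17.27, above the next P0 knockout at 16.73, a gap that was 0.765 of the range of the group. Without that array the P0 knockout minus wild-type difference of Gcg was 0.13, against 0.23 with it. Ins2 on P0 knockout 6 was at 18.504, below the 18.584 shared by all other arrays, a flag that any lone value off the plateau would give. That array was among those rich in intestinal markers, and the part this played was not tested.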

How the results depend on the processing

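The count of 1 hormone called in P0 relative to E18.5 wild type was 0 without the signal filter, with the replicate block, with the marker means or the Y-linked level as covariates, without the marker-rich arrays, and 0 to 1 when each array was left out; no other hormone call appeared under any alternative. With the replicate block, Gcg in that comparison was 0.52 (adjusted p = 0.07). All other changes of direction concern differences that were not called, and their cause was not tested. Knockout minus wild type at E18.5 turned for Ppy to 0.00475 with median centring, 0.0234 with the replicate block, 0.0531 with the running number and 0.198 with the marker covariates. Pyy turned to 0.117 at P0 and 0.0533 averaged without the marker-rich arrays. The difference of the genotype effect between ages turned for Iapp to -0.0394 with array weights and -0.182 with the marker covariates, for Sst to -0.0858 with those covariates, for Pyy to 0.0645 with the replicate block, and without the marker-rich arrays to 0.128 for Pyy, 0.0157 for Ppy and 0.102 for Ghrl. In wild type, P0 minus E18.5 turned for Ppy to -0.00347 with cyclic loess, -0.0195 with array weights, -0.0936 with the marker covariates, -0.0326 with the Y-linked level and -0.0783 without the marker-rich arrays, and for Ghrl to -0.0731 with the marker covariates. In knockouts it turned for Sst to 0.0247 with centring, 0.00293 with quantile normalisation, 0.0153 with cyclic loess, 0.0798 with the replicate block and 0.0592 without the marker-rich arrays, for Ghrl to 0.0317 with array weights and 0.132 without those arrays, and for Iapp to -0.0484 with the marker covariates. Leaving out each array in turn spanned 0 for Sst (-0.0355 to 0.180), Ppy (-0.232 to 0.200) and Pyy (-0.231 to 0.0568) by genotype at E18.5, Pyy at P0 (-0.394 to 0.00733), the age difference of that effect in Iapp (-0.126 to 0.182) and Pyy (-0.313 to 0.0883), Ppy (-0.127 to 0.209) and Ghrl (-0.0192 to 0.153) between ages in wild type, and Sst (-0.112 to 0.130) and Ghrl (-0.179 to 0.0632) between ages in knockouts. Genotype differences of the size of Gcg's at E18.5 did not pass with 4 or 5 arrays a group, and Ins2 allows no statement.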
